A study of Mus musculus with 2 samples.

Results

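Natural killer (NK) cells made up 340 of the 5022 tumor-infiltrating immune cells (TIIs) in the series, 6.77% of them, with 137 of 2392 cells in the WT-labelled library and 203 of 2630 cells in the KO-labelled library. The cells were chosen by their measured RNA molecules, counted as unique molecular identifiers (UMIs). A cell was taken when *Ncr1*, *Klrb1c*, *Klra4* and *Klra8* had at least 3 UMIs together, the CD3 genes *Cd3d*, *Cd3e* and *Cd3g* had at most 1, and the myeloid genes *Csf1r*, *C1qa*, *C1qb*, *C1qc* and *Cd14* had under 5. The levels of these 12 genes are therefore given as a description only.

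The TIIs were live CD45.2+ cells sorted at day 14 from B16-OVA tumors, mouse melanoma cells made to express ovalbumin as a model antigen. One library was labelled *Maoa* WT (wild type TILs) and the other *Maoa* KO (*Maoa* knock out TILs), each from 10 combined tumors with 10000 TIIs loaded. The methods state female mice of 8 to 12 weeks unless noted otherwise and name the KO as a *Maoa* allele from a 129S strain that was backcrossed to C57BL/6J, and the study calls this allele hypomorphic. *Maoa* encodes monoamine oxidase A, which breaks down serotonin and other monoamines. With 1 library per genotype no test between genotypes was possible, and every interval below is a 95% interval that covers counting error only.

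NK cells are innate lymphocytes that kill tumor cells and virus-infected cells with granules of perforin and granzymes, without a rearranged antigen receptor. Activating receptors such as NKp46 (*Ncr1*) and NKG2D (*Klrk1*) are balanced by inhibitory receptors of the Ly49 (*Klra*) and NKG2A (*Klrc1*) types that bind MHC class I. Most of these lectin-like receptors are encoded side by side in the NK gene complex, and each NK cell uses its own combination of them. Activated NK cells also secrete the chemokines CCL3, CCL4, CCL5 and XCL1, which attract other leukocytes to the tumor.

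NK cells of the WT-labelled library had a median of 4801 UMIs per cell (3574 to 18499) and those of the KO-labelled library a median of 3911 (2929 to 15809), with sums of 811313 and 925372 UMIs. CD8 T cells of the same libraries, used for comparison, had medians of 12017 and 5761 UMIs in 656 and 603 cells. *Maoa* had 0 UMIs in the NK cells of both libraries, which allows up to 3.70 and 3.24 CPM (UMIs per 1000000 UMIs of the same cells), and over all cells it had 7 UMIs in the WT-labelled library and 15 in the KO-labelled library, so a library is called WT-labelled or KO-labelled below. Of the 12 monoamine genes examined, 8 had no UMI in NK cells. Although the methods state female mice, Y-linked genes were found in 68 of 137 and 93 of 203 NK cells, and *Xist* had 2 and 0 UMIs. Of 13 barcode sequences present in both libraries, 2 belonged to NK cells of the KO-labelled library and 0 to those of the WT-labelled library.

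The selected cells carried genes of NK cells that the rule did not use. *Gzma*, which encodes granzyme A, was detected in 86.1% of the cells in the WT-labelled library and 81.3% in the KO-labelled library, against 19.4% and 11% of myeloid cells, which should lack it. *Xcl1*, the chemokine that attracts cross-presenting dendritic cells, was detected in 65.0% and 76.8%, against 9.62% and 7.27% of myeloid cells. *Eomes*, the transcription factor of conventional NK cells, had 88 and 126 UMIs (109 and 136 CPM), against 0.619 and 0.883 CPM in myeloid cells and 36.7 and 36.0 CPM in CD8 T cells. The adapters *Tyrobp* (2603 and 2516 CPM) and *Fcer1g* (1936 and 2166 CPM), through which activating receptors signal, were each found in over 99% of the cells, but they do not set NK cells apart from myeloid cells, which had 3118 and 3375 CPM of *Tyrobp* and 4358 and 4070 CPM of *Fcer1g*.

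The 20 leading genes were those with the highest ratio of NK cells to all other cells. Besides the 4 genes of the rule they included *Klrb1a*, *Klrb1f*, *Klrb1b*, *Klra9*, *Klra7*, *Klra3*, *Klre1* and *Klri2*, all lectin-like receptors. *Car2*, a carbonic anhydrase, had 306 CPM in the NK cells labelled WT and 280 CPM in those labelled KO, against 12.4 and 13.8 CPM in all other cells. *Txk*, a Tec family kinase, had 322 and 353 CPM against 26.1 and 39.7 CPM. *Gzma*, *Xcl1*, *Samd3*, *Spry2*, *Atp1b1* and *Khdc1a* completed the set. *Klri2* was the exception among these genes, as its place in the set rested on the KO-labelled library.

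**Figure D1:**
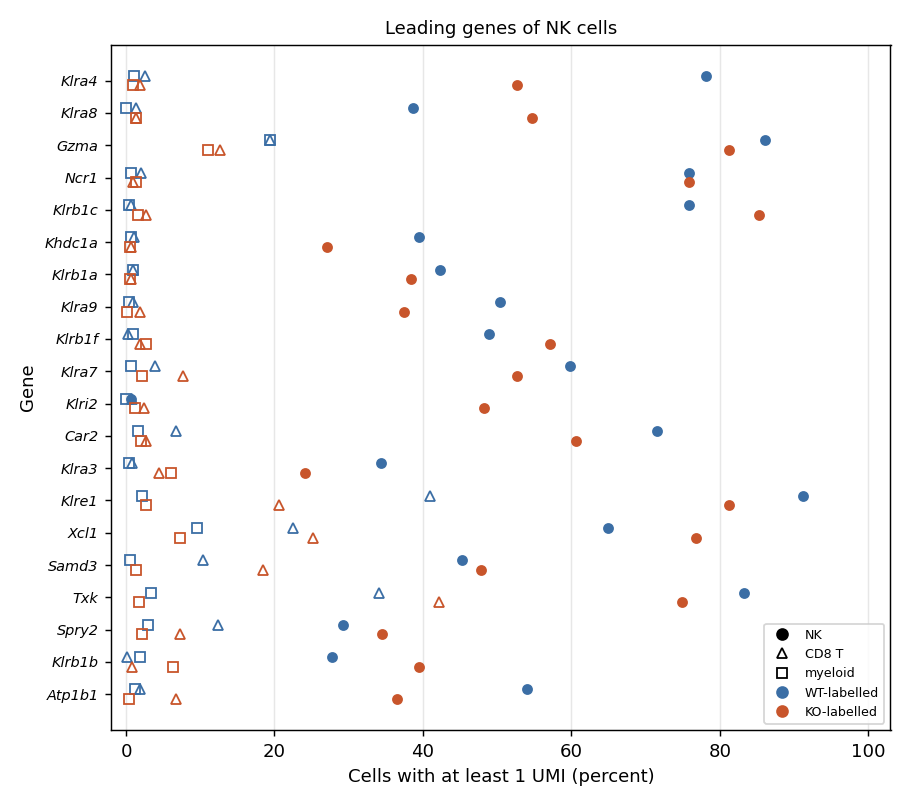
The share of cells with at least 1 UMI (x axis, percent) of each of the 20 leading genes (y axis) in NK cells (filled circles), CD8 T cells (open triangles) and myeloid cells (open squares) of the WT-labelled library (blue) and the KO-labelled library (orange), at full depth. *Klri2* is near 0 in the NK cells labelled WT (0.730%) and at 48.3% in those labelled KO.

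RefSeq windows (GRCm38.p6) from 250 bases before to 50 bases after the start were found for 17 of the 20 leading genes and were searched on both strands for 3 motifs. The Runx motif TGTGGTT (reverse complement AACCACA) was in the windows of 5 of the 17 genes, *Gzma*, *Ncr1*, *Klre1*, *Xcl1* and *Txk*, and in those of 6.09% of all genes. *Ncr1* is a gene of the rule, so its place among the leading genes depends on the choice of cells. The T-box motif AGGTGTGA (TCACACCT) was in 1 of 17, *Samd3*, against 1.48% of all genes, and the Ets motif ACAGGAAG (CTTCCTGT) in 0 of 17 against 4.06%. *Runx3*, a factor that binds Runx motifs, had 117 and 177 CPM in the NK cells, *Eomes* and *Tbx21* are T-box factors, and *Ets1* had 166 and 181 CPM. The 3 windows below, each of 250 bases up to the start, are shown because *Ncr1* defines the cells and *Gzma* and *Xcl1* are their leading effector genes. Capitals mark the Runx motif. They are at chr7:4337465-4337714 (plus strand, *Ncr1*), chr13:113100982-113101231 (minus strand, *Gzma*) and chr1:164935523-164935772 (minus strand, *Xcl1*), and the motif begins 176, 51 and 228 bases before the start. The motifs were chosen after their matches had been looked at, and a match of letters is a description and not a binding site.
Ncr1: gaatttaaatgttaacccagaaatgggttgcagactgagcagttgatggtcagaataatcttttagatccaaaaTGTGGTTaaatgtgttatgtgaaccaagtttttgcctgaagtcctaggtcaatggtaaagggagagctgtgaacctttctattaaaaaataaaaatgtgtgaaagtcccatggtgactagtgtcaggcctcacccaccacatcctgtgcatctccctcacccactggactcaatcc
Gzma: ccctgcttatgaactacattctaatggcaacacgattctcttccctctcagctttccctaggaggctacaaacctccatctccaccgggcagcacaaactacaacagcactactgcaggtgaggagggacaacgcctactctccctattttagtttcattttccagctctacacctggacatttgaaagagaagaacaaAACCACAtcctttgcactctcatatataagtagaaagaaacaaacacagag
Xcl1: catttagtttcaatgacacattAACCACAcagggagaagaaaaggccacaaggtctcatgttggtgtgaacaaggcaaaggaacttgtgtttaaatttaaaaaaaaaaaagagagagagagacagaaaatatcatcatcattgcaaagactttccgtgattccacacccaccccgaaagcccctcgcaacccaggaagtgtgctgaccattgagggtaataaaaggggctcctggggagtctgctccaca

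NK cells were 5.73% (4.83 to 6.74%) of the WT-labelled library and 7.72% (6.73 to 8.81%) of the KO-labelled library, a difference of 1.99 percentage points, with exact binomial intervals that overlapped at their ends. The rule counts UMIs, and the cells of the libraries differed in depth. With the rule applied to cells thinned to 3000 UMIs, NK cells were 4.81% (115 of 2392) and 6.99% (181 of 2588), as 42 KO-labelled cells had fewer UMIs than that. *Klra4* and *Klra8*, which helped to choose the cells, differed in detection between the libraries, and with *Ncr1* and *Klrb1c* alone (at least 2 UMIs) the shares were 5.02% and 7.22%. The CD3 limit left out 50 and 54 cells that met the marker minimum, and the myeloid limit a further 3 and 7. Just inside the threshold, 12 and 17 cells had exactly 3 marker UMIs, with *Gzma* at 6036 and 1809 CPM, *Eomes* at 197 and 178 CPM, *Xcl1* at 363 and 3207 CPM and *Klrk1* at 681 and 644 CPM. Just outside it, 12 and 16 cells had 2 marker UMIs, with *Gzma* at 2317 and 1103 CPM, *Eomes* at 39.7 and 51.3 CPM, *Xcl1* at 940 and 1180 CPM and *Klrk1* at 834 and 590 CPM.

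RNA of genes that mark other cell types was present in the NK cells. Of the 12 T cell genes listed, 9 were in the table, and together they had 157 and 138 CPM in NK cells, against 5015 and 4752 CPM in CD8 T cells. At least 1 UMI of them was found in 58.4% of WT-labelled and 49.3% of KO-labelled NK cells. Without the cells holding *Cd8a*, *Cd8b1*, *Cd4* or *Cd5*, 106 of the 137 and 186 of the 203 cells remained. The 10 myeloid genes had 425 CPM in the NK cells labelled WT and 551 CPM in those labelled KO, against 16097 and 23501 CPM in myeloid cells. The 12 dendritic cell genes had the highest sum, 1484 and 1212 CPM against 19665 and 17748 CPM in myeloid cells, most of it from *Cd74*, *H2-Ab1*, *H2-Aa* and *Bst2*, while *Xcr1*, *Clec9a* and *Flt3* were at 0 UMIs in NK cells. CD8 T cells had 1144 and 1726 CPM of the same genes. The neutrophil genes differed between the libraries, with 118 and 18.4 CPM, and at least 1 UMI of *S100a8* or *S100a9* was found in 43.8% of WT-labelled NK cells and 0.493% of KO-labelled ones. B cell genes had 2 and 28 UMIs and the melanoma genes 10 and 12. The part of these genes in the results below was not tested, except where a value without them is given.

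Between the libraries, 1956 genes had at least 100 UMIs in NK cells, with a median log2 ratio (KO-labelled over WT-labelled) of 0.01. Of these, 10 (0.511%) were at least 2-fold higher in the KO-labelled library and 18 (0.92%) at least 2-fold lower. The NK gene complex held 18 of the 1956 genes and 5 of the 10 higher ones, namely *Klri2*, *Klrc2*, *Klrb1b*, *Klra8* and *Klrc1*, of which *Klra8* had been used by the rule. None of the 18 was 2-fold lower. Without the genes of the rule the complex held 15 of the genes and 4 of the higher ones, and 14 and 3 without *Klri2* too. *Klri2* reached 100 UMIs through the KO-labelled library alone (1 and 184 UMIs). The 3 others also passed 100 UMIs in the KO-labelled library only. They had 46 and 186 UMIs (*Klrc2*), 47 and 184 (*Klrb1b*) and 87 and 261 (*Klrc1*). The filter let in genes through the library where they are high, so these counts are a description only.

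*Klri2*, which encodes a receptor that pairs with the product of *Klre1*, lies at chr6:129729041-129740484 (GRCm38, minus strand). It had 1 UMI in the 137 NK cells labelled WT and 184 UMIs in the 203 cells labelled KO, where 98 cells (48.3%) held it. Whether both libraries carry the same *Klri2* sequence was not tested, so the count may not measure its expression alike in both. The log2 ratio was 6.75 (4.84 to 12.6). Its partner *Klre1* had 457 and 462 UMIs, a log2 ratio of −0.17 (−0.36 to 0.02), so the 2 genes of the pair were unlike between the libraries. In CD8 T cells *Klri2* had 5 and 26 UMIs, a difference of the same sign at a low level.

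The genes of the NKG2 receptors were also unlike. *Klrc1*, which encodes the inhibitory NKG2A, had 107 CPM (87 UMIs) in the WT-labelled library and 282 CPM (261 UMIs) in the KO-labelled library, a log2 ratio of 1.39 (1.04 to 1.76). *Klrc2*, which encodes the activating NKG2C, had 56.7 and 201 CPM, a log2 ratio of 1.81 (1.35 to 2.32), and was detected in 23.4% and 51.7% of the cells. In CD8 T cells *Klrc2* was higher in the WT-labelled library, with 102 against 22.8 CPM and a log2 ratio of −2.16 (−2.46 to −1.89). *Klrd1*, whose product CD94 pairs with both, had 1051 and 862 CPM in NK cells, a log2 ratio of −0.29 (−0.43 to −0.15). *Klrk1*, which encodes NKG2D and lies beside them, had 704 and 812 CPM, a log2 ratio of 0.21 (0.05 to 0.37). Of the last 400 bases of the *Klrc1* transcript, 63.5% of the 50-base stretches also occur in *Klrc2* transcripts, so reads there cannot be assigned to 1 of them, whereas 0 of the stretches at the *Klrc2* end occur in *Klrc1*.

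**Figure D2:**
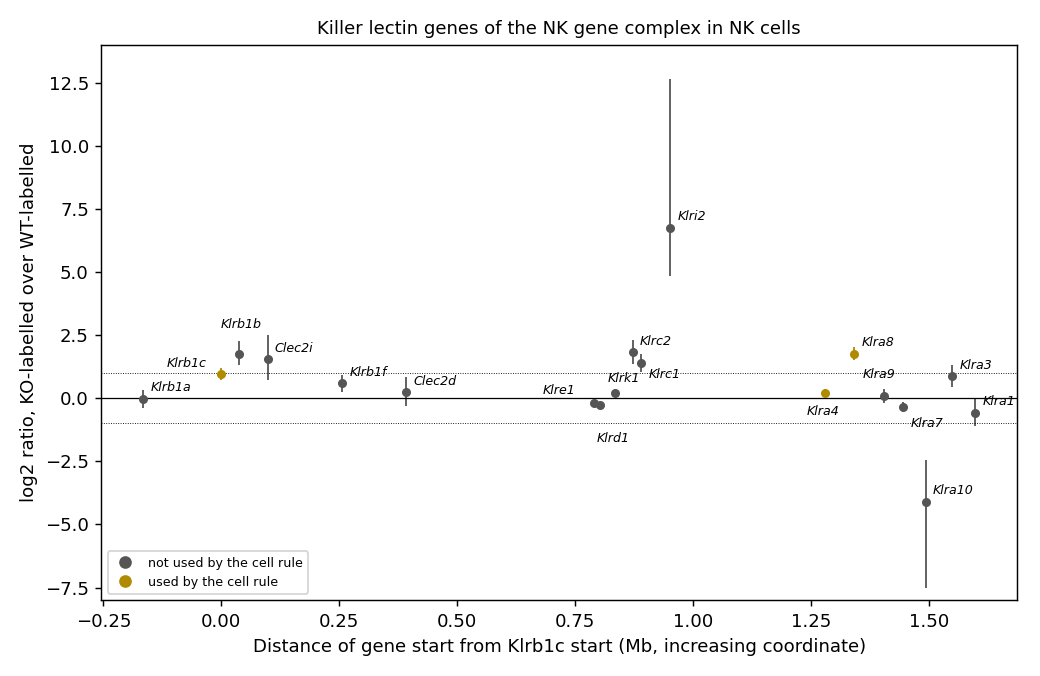
The log2 ratio between libraries (KO-labelled over WT-labelled) in NK cells (y axis, bars are 95% counting intervals) of the lectin-like genes with at least 20 UMIs, by the distance of the gene's start from that of *Klrb1c* (x axis, Mb). Yellow points are genes used to choose the cells and dotted lines mark 2-fold. *Klri2* (6.75) and *Klra10* (−4.10) lie on opposite sides, between neighbours nearer to 0.

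Among the Ly49 genes the libraries differed in both directions. *Klra10* had 37 UMIs in 31 of the 137 NK cells labelled WT and 2 UMIs in 2 of the 203 cells labelled KO, a log2 ratio of −4.10 (−7.50 to −2.44). *Klra17* had 9 and 0 UMIs. *Klra3* had 66 and 139 UMIs, a log2 ratio of 0.88 (0.45 to 1.33) that was 1.80 in cells without any myeloid UMI, and in CD8 T cells it had 5 and 60. *Klra7* had 563 and 438 CPM, a log2 ratio of −0.36 (−0.56 to −0.17), and *Klra9* had 229 and 242 CPM, a log2 ratio of 0.08 (−0.21 to 0.37). Of the genes used by the rule, *Klra8* had 185 and 630 CPM and *Klra4* 709 and 809 CPM. The sum over the Ly49 genes was 1930 and 2348 CPM, and without *Klra4* and *Klra8*, which chose the cells, the order turned, with 1037 and 909 CPM (841 UMIs in each library).

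The Ly49 genes were found together in different ways in the 2 libraries. In the WT-labelled library, 51 of the 53 NK cells with *Klra8* also held *Klra9* (96.2%, 87.0 to 99.5%), against 18 of the 84 cells without *Klra8* (21.4%). In the KO-labelled library, 48 of the 111 cells with *Klra8* held *Klra9* (43.2%, 33.9 to 53.0%), against 28 of 92 without it (30.4%). All 31 cells with *Klra10* in the WT-labelled library held *Klra9*, against 35.8% of the cells without it, and all 31 held *Klra4*, a gene of the rule, against 71.7%. *Klra3* went with *Klra8* as well, in 66.0% of the cells with *Klra8* and 14.3% of those without it in the WT-labelled library, and in 28.8% and 18.5% in the KO-labelled library. Cells with and without *Klra8* in the WT-labelled library had like depth, with medians of 4569 and 4817 UMIs. With the cells chosen by *Ncr1* and *Klrb1c* alone, 36 of 37 cells with *Klra8* held *Klra9* in the WT-labelled library and 37 of 91 in the KO-labelled library.

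Members of this family share sequence. At the 3′ end, which the libraries read, 15.7% of the 50-base stretches of *Klra8*, 33.9% of *Klra3*, 41.3% of *Klra9* and 52.1% of *Klra10* occur in another of the family transcripts compared, while *Klra1*, *Klra4* and *Klra7* shared 0. The number of Ly49 genes and their sequence differ between inbred mouse strains, and the build named in the processing notes is mm10, which is C57BL/6J. Counts of *Klra3*, *Klra8*, *Klra9* and *Klra10* are therefore uncertain as measures of single genes, and which haplotype of the NK gene complex each library carried was not tested. In cells thinned to 3200 UMIs, and with *Klra4* and *Klra8* left uncounted because they chose the cells, 27.0% of WT-labelled NK cells and 8.24% of KO-labelled ones held 3 or more Ly49 genes of the series *Klra1* to *Klra10*, and 79.6% and 74.1% held at least 1.

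**Figure D3:**
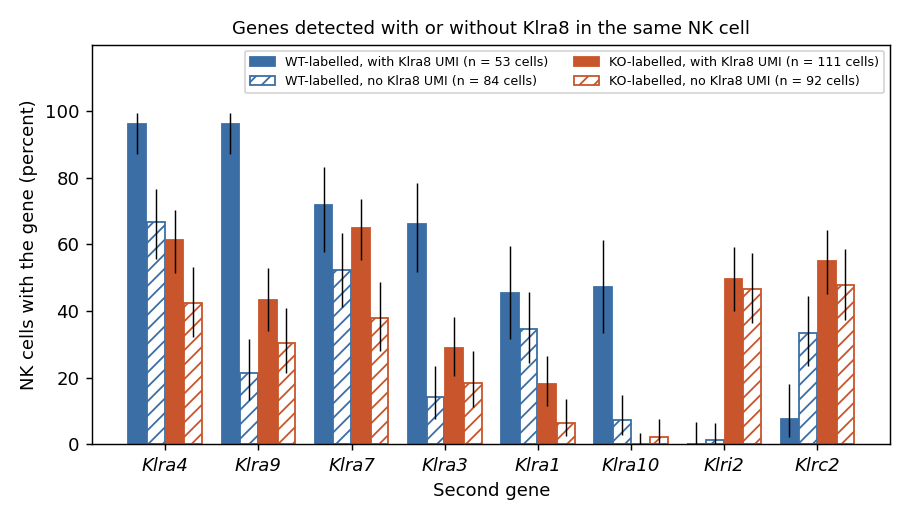
The share of NK cells (y axis, percent, with exact 95% binomial intervals) that hold a second gene (x axis), for cells with a *Klra8* UMI (filled bars) and cells without one (hatched bars) of the WT-labelled library (blue) and the KO-labelled library (orange). *Klra9* is in 96.2% of the *Klra8* cells labelled WT and in 43.2% of those labelled KO.

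Of 13 cytotoxic effector genes with at least 100 UMIs, 11 were under a log2 ratio of 0 and 2 over it, 3 were at least 2-fold lower (*Gzmb*, *Gzmc* and *Lamp1*) and 0 at least 2-fold higher, with a median of −0.25. Over all genes the shares were 0.92% lower and 0.511% higher, and the median was 0.01. The 20 genes of the list had a summed level of 15044 and 9965 CPM in NK cells, and the sums were lower in the KO-labelled library in the comparison cells as well, with 7301 and 5923 CPM in CD8 T cells and 5936 and 4150 CPM in myeloid cells. *Gzma* had 5606 CPM (4548 UMIs) in the WT-labelled library and 3470 CPM (3211 UMIs) in the KO-labelled library, a log2 ratio of −0.69 (−0.76 to −0.63). *Gzmb*, the granzyme that activates caspases in the target cell, had 1546 and 549 CPM, a log2 ratio of −1.49 (−1.64 to −1.34), and was in 65.0% and 50% of the cells after thinning to 3200 UMIs. *Prf1*, which encodes perforin, had 67 and 41 UMIs, a log2 ratio of −0.89 (−1.50 to −0.32). *Lamp1*, a lysosome membrane protein shown on the surface when granules are released, had 133 and 59.4 CPM, a log2 ratio of −1.16 (−1.66 to −0.68).

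Other genes of this group had ratios on both sides of 0. *Nkg7*, which encodes a granule membrane protein, had 2675 and 2586 CPM, a log2 ratio of −0.05 (−0.13 to 0.04). *Ctsw*, a cathepsin of cytotoxic lymphocytes, had 550 and 647 CPM, a log2 ratio of 0.24 (0.06 to 0.42), and *Fasl*, the ligand of the death receptor Fas, had 55 and 81 UMIs with an interval of −0.14 to 0.89. *Serpinb9*, the inhibitor that guards the cell against its own granzyme B, had 309 and 212 CPM, a log2 ratio of −0.55 (−0.82 to −0.27). In CD8 T cells *Gzmb* had 1247 and 944 CPM, a log2 ratio of −0.40, and *Lamp1* had 68.8 and 33.3 CPM, a log2 ratio of −1.04.

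*Gzmc* and its neighbours came from a few cells. *Gzmc* had 1336 and 362 UMIs, a log2 ratio of −2.07 (−2.24 to −1.91), but 3 cells held 50% of its UMIs in each library, and the highest cell had 304 of them in the WT-labelled library and 96 in the KO-labelled library. Of 80 *Gzmd* UMIs in the WT-labelled library, 57 were in 1 cell, while the KO-labelled library had 0, which allows up to 3.24 CPM. *Gzme* had 55 and 2 UMIs and *Gzmf* 43 and 3. Cells with at least 10 *Gzmc* UMIs were 13 of 137 and 9 of 203, with medians of 13509 and 6522 UMIs per cell. Without these cells, left out as an alternative chosen after seeing the data, the log2 ratio of *Gzmc* was −0.77 on 44 and 34 UMIs, that of *Gzmd* −1.99, that of *Prf1* −0.28 and that of *Gzmb* −1.24, and *Gzme* turned to 1.92. With the cell rule applied after thinning to 3000 UMIs, *Gzmc* was at −0.68. *Gzma* was less concentrated, with 50% of its UMIs in 26 and 32 cells.

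**Figure D4:**
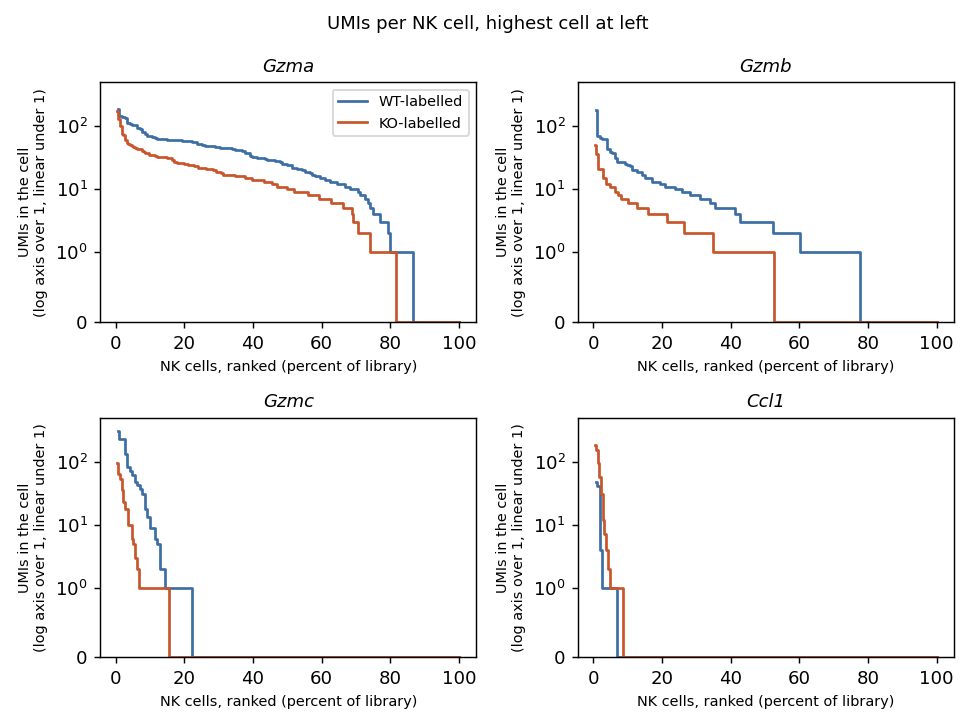
UMIs per NK cell (y axis, log scale over 1 and linear under 1) of *Gzma*, *Gzmb*, *Gzmc* and *Ccl1*, with the cells of the WT-labelled library (blue) and the KO-labelled library (orange) each ranked from the highest (x axis, percent of the library's NK cells). *Gzma* is spread over 86.1% and 81.3% of the cells, while *Ccl1* is held by 6.57% and 8.37%.

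The 14 cytokine and chemokine genes had a summed level of 10811 CPM in the WT-labelled library and 11410 CPM in the KO-labelled library, most of it *Ccl5*. *Ccl5* had 7255 and 7595 CPM, a log2 ratio of 0.07 (0.02 to 0.12), and *Ccl3* had 435 and 439 CPM. *Xcl1* had 1567 and 1885 CPM, a log2 ratio of 0.27 (0.16 to 0.37), with 390 of the 1271 WT-labelled UMIs in 1 cell. Without the 3 highest cells of each library the levels were 827 and 1606 CPM. The ratio turned to −0.37 in cells without any CD3 UMI and was 0.88 with the rule applied after thinning. *Ccl4* had 643 and 427 CPM, a log2 ratio of −0.59 (−0.78 to −0.40), with 188 of its 522 WT-labelled UMIs in 1 cell, and it was at −1.30 in cells without any CD3 UMI. *Ifng*, which encodes interferon-γ, had 68 and 94 UMIs, with an interval of −0.19 to 0.75.

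*Ccl1*, a chemokine that binds CCR8, was outside the lists and was named for its ratio. It had 99 UMIs in the WT-labelled library and 554 in the KO-labelled library, a log2 ratio of 2.29 (1.98 to 2.62), but 2 cells held 50% of them in each, and the ratio was 1.4 with a marker minimum of 4 UMIs and 5.29 with the rule applied after thinning. Cells with at least 3 *Ccl1* UMIs, a limit chosen after the values were seen, were 3 of 137 and 8 of 203, and all 11 also had at least 20 UMIs of *Xcl1*. In these 8 cells of the KO-labelled library *Xcl1* had 8010 CPM, against 1400 CPM in the other 195, *Crtam*, an activating receptor, had 1033 against 38.5 CPM, and *Tnfrsf9*, which encodes the activation marker 4-1BB, had 1254 against 177 CPM. *Gzma* was low there, with 2 UMIs in all 8 cells (29.5 CPM) against 3742 CPM in the others. The 3 cells of the WT-labelled library had the same order, with *Gzma* at 560 against 5838 CPM, *Crtam* at 1149 against 25.8 CPM and *Tnfrsf9* at 1989 against 329 CPM. *Ncr1* and *Klrb1c* helped to choose the cells, so their levels here are a description only. A cell low in 1 of them was taken only through the other genes of the rule. *Ncr1* was at 457 against 441 CPM in the KO-labelled library and 644 against 384 CPM in the WT-labelled library, whereas *Klrb1c* was at 88.5 against 571 CPM and at 0 UMIs against 286 CPM. Their median depth was 7212 and 15162 UMIs, above that of the other NK cells.

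Of 8 maturation and circulation genes with at least 100 UMIs, 5 were over and 3 under 0, with a median of 0.17. *Cd27*, which is lost as mouse NK cells mature, had 107 CPM in the WT-labelled library and 206 CPM in the KO-labelled library, a log2 ratio of 0.94 (0.57 to 1.33). *Itgam*, which encodes CD11b and is gained, had 17 and 21 UMIs. Thinned to 3200 UMIs, which left out 0 and 33 cells, 29.2% (21.7 to 37.6%) and 44.7% (37.1 to 52.5%) of the cells held *Cd27* only, 8.03% and 4.71% held *Itgam* only, and 62.0% and 48.2% neither. *Tcf7*, a factor of early NK cells, had 38 and 87 UMIs, a log2 ratio of 0.99 (0.44 to 1.60), and *Klrg1*, a receptor of late maturation, had 50 and 24 UMIs, a log2 ratio of −1.23 (−2.01 to −0.52) that was −0.34 in cells without any myeloid UMI. *Ly6c2*, found on mature NK cells, was higher in the KO-labelled library, with 95 and 204 UMIs and a log2 ratio of 0.91 (0.55 to 1.28), and *Cma1*, another gene of that list, had 14 and 40 UMIs (1.29, 0.42 to 2.32). In CD8 T cells *Tcf7* had 16.4 and 67.9 CPM, a log2 ratio of 2.05, while *Cd27* had 215 and 232 CPM, a log2 ratio of 0.11.

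Of 11 lineage factors with at least 100 UMIs, 7 were over and 4 under 0, with a median of 0.12, and 0 were 2-fold higher or lower, where the shares over all genes were 0.511% and 0.92%. *Tbx21*, which encodes T-bet, had 51 and 67 UMIs and *Eomes* a log2 ratio of 0.33 (−0.08 to 0.74). *Id2*, needed for all innate lymphoid cells, had 1101 and 1140 CPM. *Irf8* had 751 and 512 CPM, a log2 ratio of −0.55 (−0.73 to −0.38), and *Klf2*, a factor of circulating lymphocytes, had 173 and 96.2 CPM, a log2 ratio of −0.84 (−1.24 to −0.45). At least 1 UMI of 6 genes of type 1 innate lymphoid cells, *Cxcr6* and *Il7r* among them, was found in 22.6% and 20.7% of the cells. *Cxcr6* had 13 and 46 UMIs, a log2 ratio of 1.59 (0.72 to 2.65) that was 0.64 in cells without any myeloid UMI, and *Il7r* had 14 and 29. Of the receptors for cytokines, *Il2rb* had 468 and 465 CPM, *Il18r1* had 83.8 and 119 CPM and *Ifngr1* had 757 and 975 CPM. *Cxcr3*, a receptor for interferon-induced chemokines, had 40 and 89 UMIs, a log2 ratio of 0.95 (0.41 to 1.54).

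Of 24 hypoxia and glycolysis genes, 11 had at least 100 UMIs, and all 11 were under 0 with the cell rule as given, with a median of −0.55 beside 0.01 for all genes. None of the 11 was 2-fold lower, where the share over all genes was 0.92%. The direction was not kept by all of them under other cell rules, as *Pgam1* (−0.21) turned to 0.43 in cells without any myeloid UMI. *Gapdh* had 1574 and 1112 CPM (−0.50, −0.62 to −0.38), *Aldoa* 1095 and 690 CPM (−0.66, −0.81 to −0.52) and *Tpi1* 470 and 273 CPM (−0.78, −1.02 to −0.55). *Hif1a*, the oxygen-regulated factor that induces them, had 66 and 31 UMIs (−1.27, −1.94 to −0.64). The same genes were lower in CD8 T cells, with −0.38 for *Gapdh*, −0.52 for *Aldoa* and −0.56 for *Tpi1*.

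**Figure D5:**
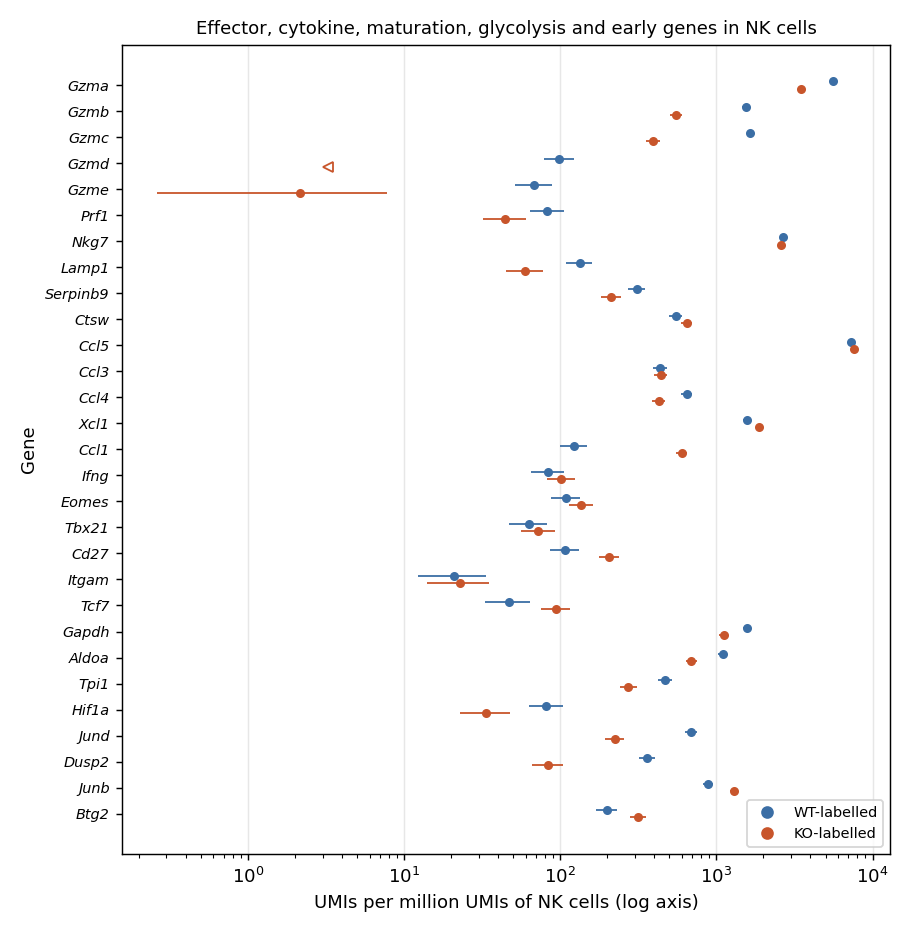
Levels in NK cells (x axis, CPM, log axis) of 29 genes (y axis) in the WT-labelled library (blue) and the KO-labelled library (orange), with exact 95% Poisson intervals as bars. The open triangle marks the limit that a count of 0 allows for *Gzmd* (3.24 CPM), and *Gzmb*, *Gzmc*, *Dusp2* and *Jund* are further to the left in the KO-labelled library.

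Of the immediate early and stress genes, a list that also holds heat shock genes, 12 of 16 with at least 100 UMIs were higher in the KO-labelled library, with a median of 0.46 beside 0.01 for all genes, and 0 of them were 2-fold higher, where the share over all genes was 0.511%. *Junb* had 886 and 1297 CPM (0.55, 0.41 to 0.68) and *Btg2* 198 and 313 CPM (0.66, 0.38 to 0.95). *Jund* (689 and 223 CPM, −1.63) and *Dusp2* (361 and 83.2 CPM, −2.11) were the 2 members at least 2-fold lower, against 0.92% of all genes. Of 14 interferon response genes with at least 100 UMIs, 6 were over and 8 under 0, with *Bst2* at 208 and 104 CPM (−1.0, −1.38 to −0.64; −0.34 with the rule applied after thinning) and *Irf7* at 94.9 and 48.6 CPM (−0.96, −1.53 to −0.42). In CD8 T cells *Bst2* (−0.07) and *Irf7* (0.05) were near 0.

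Several of the most different genes differed alike in other cells of the same libraries. *Cap1*, an actin-binding protein gene, had 381 and 64.8 CPM in NK cells (−2.54), and its log2 ratio was −2.29 in CD8 T cells and −1.92 in myeloid cells. *Jund* was at −1.65 and −1.67 in those cells and *Gnas*, at −1.67 in NK cells, was at −1.64 and −0.96. *Apobec3*, a restriction factor of retroviruses, was at 1.99 in NK cells, 2.39 in CD8 T cells and 2.14 in myeloid cells. *Gdpd3* was at −5.15 in NK cells, with 140 and 4 UMIs, and at −5.10 and −1.68. *Spp1*, which encodes osteopontin, was unlike these, with 462 and 65.9 CPM in NK cells (−2.80, −3.22 to −2.42; −0.87 without the cells with at least 10 *Gzmc* UMIs) and 196 and 369 CPM in CD8 T cells (0.91). 4 cells held 50% of its UMIs in each library, and myeloid cells had 2245 and 1730 CPM.

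The share of NK cells with mitosis genes depended on the limit, and at 1 UMI of 8 genes it was 29.9% and 24.1%. At least 2 UMIs of the same 8 genes were found in 11 of 137 cells (8.03%, 4.08 to 13.9%) in the WT-labelled library and 14 of 203 (6.90%, 3.82 to 11.3%) in the KO-labelled library, and in 4.38% and 5.29% after thinning to 3200 UMIs, with intervals that overlapped. *Top2a* had 45 and 46 UMIs and *Mki67* 16 and 29, and without the cells with at least 10 *Gzmc* UMIs their log2 ratios were 1.03 and 1.34. Of 8 cell cycle genes with at least 100 UMIs, 7 were under 0, with a median of −0.29 beside 0.01 for all genes. *H2afz*, which encodes a histone variant, was at 0.54 (859 and 1252 CPM). None of the 8 was 2-fold higher or lower, where the shares over all genes were 0.511% and 0.92%. The sum over the 29 genes of the list had a log2 ratio of −0.04 (−0.12 to 0.03). Without the cells with at least 10 *Gzmc* UMIs, the list members *Stmn1* (−0.48) and *Rrm2* (−0.50) turned to 0.55 and 1.49.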

How the data were processed

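TIIs were profiled by single-cell RNA sequencing (Chromium 3′ V2). The authors counted UMIs with Cell Ranger (build mm10 per the submitters' processing notes; version not given in the sources used here), combined the 2 libraries, removed cells of poor quality on depth, gene number and mitochondrial reads, and ran the Seurat normalisation. The values that the authors deposited, named raw counts, were on a natural log scale (1 added to UMIs per 10000 of the cell). They gave back whole UMIs, within 0.01, at 100% of the entries above 0 in all 5022 cells, and these UMIs were analysed. The lowest cell had 2928 UMIs and the highest mitochondrial share was 4.97%.

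The members and gene lists were chosen with earlier results of these data known. CD8 T cells had at least 3 *Cd3* UMIs, at least 2 of *Cd8a* and *Cd8b1*, 0 of *Cd4*, at most 1 of the 4 NK genes and under 5 myeloid UMIs; myeloid cells had at least 5 myeloid UMIs and at most 1 of the CD3 and of the 4 NK genes. Doublets were not called. Sums are CPM with exact Poisson intervals, shares have Clopper-Pearson intervals and log2 ratios have 0.5 UMIs added and an exact conditional binomial interval, all at 95%. A count of 0 was given the limit of 3 counts. Thinning drew UMIs without replacement (seed 1). The ratios and intervals were tested on simulated Poisson counts summed per library, and thinning on a simulated table of cells. The simulated sums held no spread between cells, so they do not check the intervals of genes held by few cells. Genes named are list genes with at least 20 UMIs and the 20 leading genes. The leading genes were taken from those in at least 25% of NK cells, with libraries weighted equally and 1 CPM added. Also named are the 12 most different each way of those that had 100 UMIs or more and an interval without 0. Others are said to be chosen after their values were seen or belong to the NK gene complex. Markers of cell type, genotype, sex or activation are named at any count. Gene positions are from GENCODE M21. Alternatives covered the cell rule, depth, scaling, weighting, gene minimum and cycling limit. Python 3.11.15, numpy 2.4.6, scipy 1.17.1 and matplotlib 3.10.9 were used.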

Additional observations from a re-analysis of the deposited data

Results flagged for a closer look

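*Klrc2* differed in opposite directions in 2 kinds of cell of the same libraries. Its log2 ratio (KO-labelled over WT-labelled) came to 1.81 (1.35 to 2.32) in NK cells, with 46 and 186 UMIs, and −2.16 (−2.46 to −1.89) in CD8 T cells, with 935 and 119 UMIs. The difference between the cell types was not tested, since each genotype has 1 library. In Ly49-expressing CD8 T cells it had 66 and 23 UMIs, a log2 ratio of −1.04 (−1.81 to −0.36).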

How the results depend on the processing

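No paired analysis was possible because the groups share 1 replicate number and each has 1 library, so no library could be left out either. The KO-labelled library had the higher NK share under each of the alternatives to the cell rule. Without any CD3 UMI the shares were 3.60% and 5.74%, without any myeloid UMI 3.14% and 5.02%, and in the WT-labelled library 4.81% with the rule applied after thinning to 3000 UMIs and 4.43% without cells holding *Cd8a*, *Cd8b1*, *Cd4* or *Cd5* (chosen after seeing the data). The genes at least 2-fold higher in the KO-labelled library numbered 10, and 17 with a marker minimum of 2, 19 with *Ncr1* and *Klrb1c* alone, 19 with the thinned rule, 34 at a minimum of 50 UMIs, 6 at 200 and 1833 with no minimum. Those 2-fold lower numbered 18, and 49 at 50 UMIs and 1465 with no minimum, where most ratios rest on few UMIs. Cycling cells were 29.9% and 24.1% at 1 UMI and 2.92% and 1.48% at 4. Without cells holding at least 10 *Gzmc* UMIs (chosen after seeing the data) *Gzme* turned to 1.92, *Cdk1* to 0.15 and *Tyms* to 0.31, and without cells holding T cell genes *Cdk1* was at 0.089. Among 278 genes, none that was 2-fold different changed sign under the other alternatives, and the most moved by more than their counting interval (40) were in cells without a myeloid UMI. Depth limits genes under about 100 UMIs, and the difference of *Spp1* ranged from −2.91 to −0.87 and that of *Ccl1* from 1.4 to 5.29.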
